A study of Mus musculus with 40 samples.

Results

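The E2F transcription factors and the RB pocket proteins were followed in mouse embryonic fibroblasts (MEFs) through 10 genes, chosen by symbol: E2f1, E2f2, E2f3, E2f4, E2f5, E2f7, E2f8, Rb1, Rbl1 and Rbl2. All 10 were present among the 24062 genes of the count table, as 7 E2F genes and 3 pocket protein genes. E2F factors bind DNA, most of them together with a DP partner, and control genes for DNA replication and mitosis. The pocket proteins pRB, p107 and p130, encoded by Rb1, Rbl1 and Rbl2, bind E2F factors and hold these genes back until cyclin-dependent kinases phosphorylate the pocket proteins. E2F1, E2F2 and E2F3 are classed as activators that bind pRB, E2F4 and E2F5 as repressors that act with p107 and p130 in the DREAM complex, and E2F7 and E2F8 as repressors that need neither a DP partner nor a pocket protein.

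RNA-seq libraries came from primary MEFs of 13.5 dpc embryos at passage 3 on a mixed C57BL/6J-129P2OlaHsd background. The embryos were Sall2 wild type (WT, 1 embryo), heterozygous (Het, 1 embryo) or homozygous knockout (KO, 3 embryos), and cells of each embryo were left untreated (control) or given 1 µM doxorubicin, a topoisomerase II poison that breaks DNA, for 16 h. Of the 10 columns, those of KO embryos 2 and 3 with doxorubicin held the same count for all 24062 genes and were counted as 1 library, which left 5 control and 4 doxorubicin libraries. WT and Het were each a single embryo, so that genotype and embryo cannot be told apart for them. Total counts per library ran from 15560728 in the Het doxorubicin library to 24122414 in the WT control library.

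Sall2, the targeted gene, had 38.0 CPM (counts scaled to the library total and its TMM factor) in the WT control library, 24.0 in Het and 20.1, 24.4 and 19.1 in the 3 KO libraries. With doxorubicin it had 9.36 CPM (WT), 7.80 CPM (Het) and, for KO embryos 1 and 2, 4.19 and 3.72 CPM. WT was the highest library in each treatment, and the Het control lay inside the KO range. Counts over the whole gene do not resolve the deleted part from what remains of the transcript.

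The fibroblast label was checked first. The 6 fibroblast markers, led by Col1a1, summed to 50602, 43448 and 51312 CPM in the control libraries of WT, KO embryo 1 and KO embryo 2. They summed to 11442 and 10223 CPM in the control libraries of Het and KO embryo 3. With doxorubicin the sums were 36940 CPM in WT, 34788 and 31762 in the KO libraries and 12396 in Het.

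The 3 libraries with low fibroblast sums, Het control, KO embryo 3 control and Het doxorubicin, are called standing apart here by a rule chosen after seeing the data, a sum of 8 interferon-stimulated genes over 1000 CPM. Those genes, led by Bst2, summed to 1948, 2139 and 1291 CPM, against 45.4 to 62.0 CPM in the other control libraries and 258 to 315 CPM in the other doxorubicin libraries. Their 6 macrophage markers, led by Lyz2, summed to 586, 431 and 640 CPM, against 68.9 to 164 CPM elsewhere. Lyz2, Emr1, Itgam and Ptprc were each higher in these 3 libraries than in all others. Csf1r and Cd68 did not follow in the KO embryo 3 control. Csf1r had 22.8 CPM there, below the controls of WT (28.9) and KO embryo 1 (26.3), and Cd68 had 9.33 against 8.35 in the WT control. None of the 6 macrophage markers was at 0 in every library. The 5 endothelial markers, led by Emcn, summed to 47.3 CPM in the WT control and to between 17.6 and 19.7 CPM in the other controls. With doxorubicin they summed to 90.7 CPM in WT and to between 35.6 and 38.5 CPM in the rest. The higher WT sums came from Emcn, at 41.0 CPM in the WT control against 10.1 to 13.7 CPM in the other controls. With doxorubicin Emcn had 73.9 CPM in WT against 16.6 to 20.01 CPM in the rest. Pecam1, Cdh5, Kdr and Tek were not highest in the WT library of either treatment. The sum of the 4 epithelial markers, led by Krt18, lay between 6.37 and 19.0 CPM and held opposite moves. In WT Krt18 went from 18.3 CPM in control to 4.58 with doxorubicin, and Krt8 from 0.252 to 0.0996. Epcam went from 0.151 to 3.63 CPM and Cdh1 from 0.302 to 0.846. Proliferation genes were lower in the same 3 libraries, where the 12 G2/M genes listed further on summed to 343, 478 and 435 CPM against 898 to 1491 CPM in the other libraries. In bulk samples, fewer cells of a type and less RNA per cell cannot be told apart. What part these differences have in the levels of the E2F and pocket protein genes was not tested. Below, the treatment tests of the 10 genes and the counts of the gene lists, except the interferon list by which they were chosen, are given with and without the 3 libraries. Levels per kilobase and shares use all 9 where nothing else is said.

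Levels between genes were compared as CPM per kilobase of exon. In control cells E2f4 was the highest, at 21.7 ± 1.18 CPM per kilobase (SD, n = 5), and its range did not overlap that of E2f1, the next gene at 12.4 ± 3.42. E2f1, E2f3 at 9.82 ± 1.53 and E2f5 at 7.76 ± 2.04 followed, each overlapping its neighbour. Below E2f5, without overlap, came Rb1 at 4.55 ± 0.565, Rbl1 at 3.84 ± 1.20, Rbl2 at 3.52 ± 0.330, E2f8 at 3.40 ± 1.80 and E2f7 at 2.597 ± 1.396, again with overlapping neighbours. E2f2 was the lowest at 0.442 ± 0.0460, below the whole range of E2f7. This order among the genes below E2f5 depended on the libraries standing apart. In the 3 controls left without them Rbl1 (4.65 CPM per kilobase), E2f8 (4.63) and Rb1 (4.57) overlapped. E2f7 (3.61) and Rbl2 (3.59) had lower means, and Rbl2 overlapped E2f8, which was below it in the WT control (3.69 against 3.74). In these controls E2f4, E2f1, E2f3 and E2f5 kept their order without overlap. With the longest transcript in place of all exons E2f5 (7.77 CPM per kilobase) and Rb1 (5.88) overlapped, and Rbl2 (5.40), E2f8 (5.02), Rbl1 (4.73) and E2f7 (4.27) followed in that order, each overlapping the next. E2f4 stayed above and E2f2 below all others without overlap.

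The order of these levels differed with doxorubicin. E2f1 at 22.1 CPM per kilobase and Rb1 at 11.3 came first and next in WT and both KO libraries (means of 3 libraries), whereas in the Het library E2f4 (12.6), Rb1 (12.4) and E2f1 (11.6) led. Over all 4 libraries the means were 19.5 for E2f1, 11.6 for Rb1 and 8.55 for E2f4, but E2f4 was in place 1 in Het, 7 in WT and 4 in both KO libraries. Without the Het library Rbl2, E2f4, E2f5, E2f7 and E2f3 had means from 7.35 down to 6.76, each overlapping the next. E2f2 remained last in every library, at a mean of 1.46. Over all 4 libraries each gene in the order of the means overlapped the next. With the longest transcript Rbl2 (10.9 CPM per kilobase) came between Rb1 (14.9) and E2f4 (10.5), E2f7 was at 10.3, and Rbl1 (2.76) did not overlap E2f2 (1.503).

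Summed per kilobase, the 7 E2F genes gave 64.1 CPM in the WT control library, 46.8 in Het and 63.6, 61.2 and 54.9 in KO. With doxorubicin they gave 54.6 (WT), 41.5 (Het) and, for KO embryos 1 and 2, 55.0 and 56.5. Within this pool E2f4 took 37.6 ± 3.29% in control cells (SD, n = 5) and 17.3% with doxorubicin, where the Het library kept 30.4% and the other 3 libraries had between 12.3% and 14.04%. E2f1 took 21.1 ± 3.49% in control cells and 36.9% with doxorubicin, and E2f7 4.282 ± 2.001% and 11.9%. E2f1 was thus the leading E2F transcript in WT and both KO libraries with doxorubicin, whereas in the Het doxorubicin library E2f4 stood above it, at 30.4% against 28.01%.

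The 3 pocket protein genes summed to between 10.0 and 13.2 CPM per kilobase in the control libraries and to between 18.8 and 23.8 with doxorubicin, without overlap. Rb1 took 38.5 ± 5.25% of this sum in control cells and 55.5% with doxorubicin, Rbl1 31.8 ± 7.34% and 10.7%, and Rbl2 29.8 ± 3.49% and 33.8%. Without the libraries standing apart the control shares of Rb1 and Rbl1 were 35.7% and 36.3%. With the longest transcript in place of all exons, the share of Rbl2 was 33.9% in control cells and 37.9% with doxorubicin, and that of E2f7 among the E2F genes was 16.2% with doxorubicin. Exon lengths were those of GENCODE and may differ from the gene models used for counting.

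**Figure D1:**
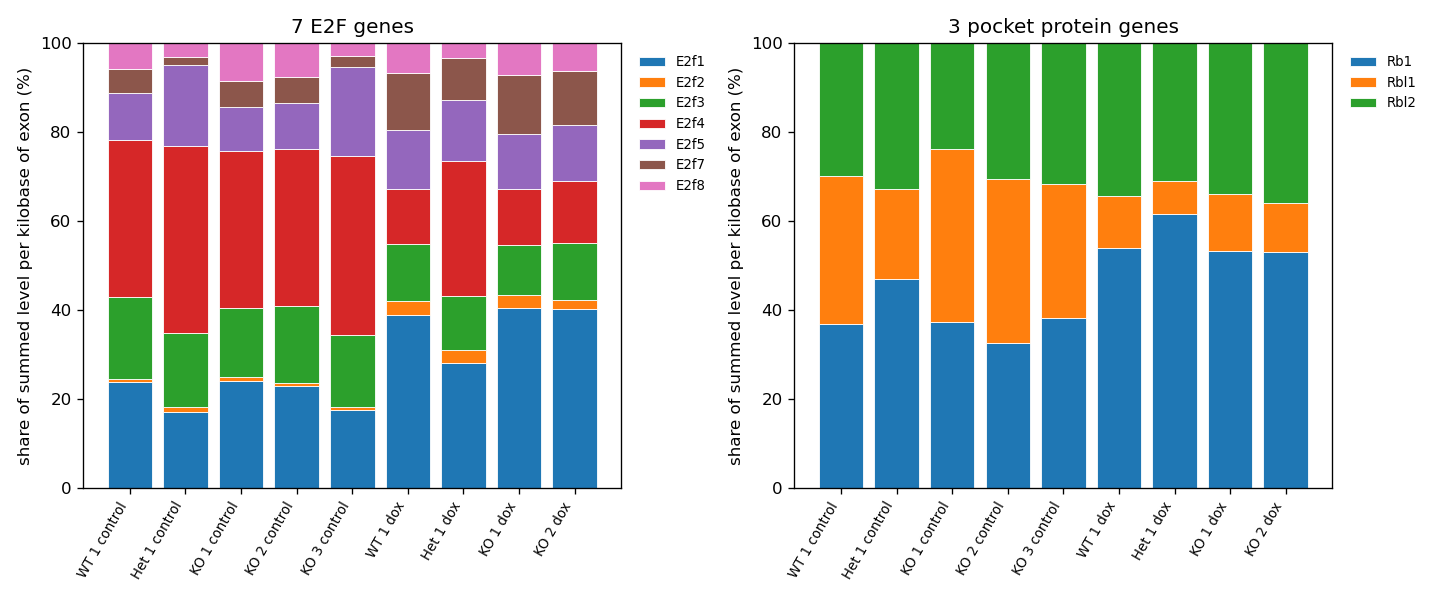
Share of each gene in the summed level per kilobase of exon (%, vertical axis) in each of the 9 libraries (horizontal axis), for the 7 E2F genes and the 3 pocket protein genes. E2f4 fills 35.2% to 42.1% of the E2F bar in control libraries and 12.3% to 30.4% with doxorubicin, and Rbl1 shrinks from between 20.1% and 38.7% to between 7.41% and 12.7% of the pocket protein bar.

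The first comparison asked which of these genes differ between doxorubicin and control cells, over all genotypes. With edgeR's quasi-likelihood test and Benjamini-Hochberg adjustment over 14883 genes (false discovery rate, FDR, under 0.01), 7 of the 10 genes were called, 5 higher and 2 lower. Of all genes tested, 42.1% were called, 21.9% higher and 20.2% lower. The median log2 fold change was 0.35 for the 10 genes and -0.018 for all genes tested. For 6 of the 10, the doxorubicin and control libraries did not overlap, as for 47.3% of all genes tested, where a random division of 9 libraries would give 1.59%. Leaving out 1 library left 4 of the 10 called without the WT control, the Het control or any of the 4 doxorubicin libraries, 5 without the KO embryo 2 control and 8 without the KO embryo 3 control. Of all genes, 26.9% to 34.6% were called in the fits with 4 of the 10, 36.4% in that with 5 and 60.9% in that with 8. The count of all genes called was 4102 without the KO embryo 2 doxorubicin library and 4177 without that of WT, and the 3004 lower genes became 1868 without the WT control and 1842, 1968 and 1906 without the doxorubicin libraries of WT, KO embryo 1 and KO embryo 2. In KO libraries alone 2 of the 10 were called (E2f4 and Rb1), beside 12.8% of all genes, and without a genotype term 5, beside 40.1%, with E2f1 and E2f7 no longer called.

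Among the activators, E2f1 had 48.1 CPM in the WT control library, 25.2 in Het and 48.4, 44.1 and 30.3 in the KO controls. With doxorubicin it had 67.1 CPM (WT), 36.7 CPM (Het) and, for KO embryos 1 and 2, 70.1 and 71.7 CPM. The Het and KO embryo 3 controls were low, the Het doxorubicin library was far below the other 3, and the treatments overlapped through it, although E2f1 was higher with doxorubicin in all 4 embryos compared with their own control. E2f1 rose by a log2 fold change of 0.71 (SE 0.16, adjusted p = 0.0051 in edgeR's quasi-likelihood test). Without the 3 libraries standing apart it was 0.61 (edgeR adjusted p = 0.00015). The call was lost when any of 7 libraries was left out, with edgeR adjusted p from 0.0127 to 0.0279: the WT, Het and KO embryo 2 controls and the 4 doxorubicin libraries. It was also lost without a genotype term (edgeR adjusted p = 0.0353).

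E2f2 was the scarcest of the 10, with 40 to 57 counts per control library. It had 2.16 CPM in the WT control library, 2.33 in Het and 2.12, 2.37 and 1.80 in the KO controls, and with doxorubicin 8.31 CPM (WT), 6.28 CPM (Het) and, for KO embryos 1 and 2, 7.94 and 5.97 CPM. All doxorubicin libraries were above all controls, and the Het and KO embryo 3 controls did not stand apart for this gene. E2f2 rose by a log2 fold change of 1.75 (SE 0.22, edgeR adjusted p = 0.00027), higher in 4 of 4 embryos, and by 1.77 without the 3 libraries standing apart (edgeR adjusted p = 2.4e-05).

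E2f3, the remaining activator, moved the other way. It had 64.2 CPM in the WT control library, 42.6 in Het and 54.0, 57.5 and 48.4 in the KO controls, and with doxorubicin 38.0 CPM (WT), 26.9 CPM (Het) and, for KO embryos 1 and 2, 33.3 and 38.8 CPM. All doxorubicin libraries were below all controls, with Het the lowest in each treatment. E2f3 fell, with a log2 fold change of -0.58 (SE 0.12, edgeR adjusted p = 0.0037) and lower values in 4 of 4 embryos, and -0.63 without the 3 libraries standing apart (edgeR adjusted p = 0.00025). The call was lost when any of the same 7 libraries as for E2f1 was left out (edgeR adjusted p from 0.0105 to 0.0294), and with library totals in place of TMM factors, a scaling chosen after seeing the data (edgeR adjusted p = 0.0161). E2f3 has transcripts from separate start sites, and counts per gene do not separate them.

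Of the repressors that act with pocket proteins, E2f4 had 55.5 CPM in the WT control library, 48.3 in Het and 55.0, 52.8 and 54.0 in the KO controls. With doxorubicin it had 16.5 CPM (WT), 30.9 CPM (Het) and, for KO embryos 1 and 2, 17.0 and 19.5 CPM. The controls lay close together, all doxorubicin libraries were below them, and the Het doxorubicin library lay between the groups. E2f4 fell in the test, with a log2 fold change of -1.35 (SE 0.20, edgeR adjusted p = 0.00058) and lower values in 4 of 4 embryos, and -1.59 without the 3 libraries standing apart (edgeR adjusted p = 6.2e-07).

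E2f5, the other repressor of this kind, had 12.03 CPM in the WT control library, 15.02 in Het and 11.2, 11.2 and 19.7 in the KO controls, and with doxorubicin 12.9 CPM (WT), 10.3 CPM (Het) and, for KO embryos 1 and 2, 12.1 and 12.7 CPM. The Het and KO embryo 3 controls were the high libraries, and the treatments overlapped. The log2 fold change of -0.16 (SE 0.23, edgeR adjusted p = 0.59) did not pass the test, and without the 3 libraries standing apart its sign turned, to 0.17 (edgeR adjusted p = 0.25).

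The atypical E2Fs differed from each other. E2f7 had 32.2 CPM in the WT control library, 7.86 in Het and 33.0, 32.4 and 11.5 in the KO controls, and with doxorubicin 63.0 CPM (WT), 34.9 CPM (Het) and, for KO embryos 1 and 2, 65.9 and 61.2 CPM. The Het and KO embryo 3 controls were low, the Het doxorubicin library was low among the treated ones, and all doxorubicin libraries were above all controls. E2f7 rose by a log2 fold change of 1.47 (SE 0.32, edgeR adjusted p = 0.0048), higher in 4 of 4 embryos, and by 1.00 without the 3 libraries standing apart (edgeR adjusted p = 3.8e-06). On the log2 CPM scale the Het embryo differed by 2.14 between doxorubicin and control, against 0.96 in WT and 1.00 and 0.92 in KO embryos 1 and 2; this difference between genotypes was not tested, with 1 Het embryo. The call was lost when the WT control, the Het control or any of the 4 doxorubicin libraries was left out (edgeR adjusted p from 0.0117 to 0.0235), and without a genotype term (edgeR adjusted p = 0.0224).

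E2f8 had 20.1 CPM in the WT control library, 8.02 in Het and 29.9, 25.6 and 8.93 in the KO controls, and with doxorubicin 20.01 CPM (WT), 7.61 CPM (Het) and, for KO embryos 1 and 2, 21.3 and 19.6 CPM. Both groups held low libraries, the same 3 that stood apart, and the treatments overlapped. E2f8 did not pass the test, with a log2 fold change of -0.0067 (SE 0.31, edgeR adjusted p = 0.99), and it was lower in 4 of 4 embryos, by 0.0051 to 0.49 on the log2 CPM scale. With embryo as a replicate block it was -0.19 (edgeR adjusted p = 0.25), without the 3 libraries -0.26 (edgeR adjusted p = 0.095), and without the pairing RLE factors gave 0.035 and library totals 0.093.

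Among the pocket proteins, Rb1 had 27.9 CPM in the WT control library, 31.4 in Het and 29.7, 24.9 and 23.1 in the KO controls. With doxorubicin it had 67.3 CPM (WT), 74.6 CPM (Het) and, for KO embryos 1 and 2, 60.2 and 76.0 CPM. All doxorubicin libraries were above all controls, and Het was the highest control by a margin smaller than the spread of the others. Rb1 rose by a log2 fold change of 1.38 (SE 0.13, edgeR adjusted p = 7.9e-05), higher in 4 of 4 embryos, and by 1.34 without the 3 libraries standing apart (edgeR adjusted p = 5.2e-06).

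Rbl1, the pocket protein gene that E2F factors themselves are known to regulate, had 25.0 CPM in the WT control library, 13.4 in Het and 30.7, 27.96 and 18.0 in the KO controls. With doxorubicin it had 14.5 CPM (WT), 8.94 CPM (Het) and, for KO embryos 1 and 2, 14.3 and 15.8 CPM. The Het and KO embryo 3 controls were low, and the Het control lay among the doxorubicin libraries. The log2 fold change of -0.68 (SE 0.19, edgeR adjusted p = 0.0137) missed the threshold, with lower values in 4 of 4 embryos. It passed with embryo as a replicate block (log2 fold change -0.77, edgeR adjusted p = 0.0013), without the KO embryo 3 control alone (edgeR adjusted p = 0.00054), without the 3 libraries standing apart (log2 fold change -0.86, edgeR adjusted p = 7.9e-05) and in DESeq2 (adjusted p = 0.0051). With the block, 8 of the 10 genes and 59.4% of all genes were called, and without the 3 libraries 8 of 10 and 67.8%.

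Rbl2 had 28.2 CPM in the WT control library, 27.6 in Het and 23.9, 29.3 and 24.0 in the KO controls, and with doxorubicin 53.9 CPM (WT), 47.3 CPM (Het) and, for KO embryos 1 and 2, 48.1 and 64.6 CPM. All doxorubicin libraries were above all controls, with no library far from its group. Rbl2 rose by a log2 fold change of 1.05 (SE 0.15, edgeR adjusted p = 0.00045), higher in 4 of 4 embryos, and by 1.07 without the 3 libraries standing apart (edgeR adjusted p = 5.4e-05). E2f2, E2f4, Rb1 and Rbl2 were the 4 genes called with each of the 9 libraries left out in turn.

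**Figure D2:**
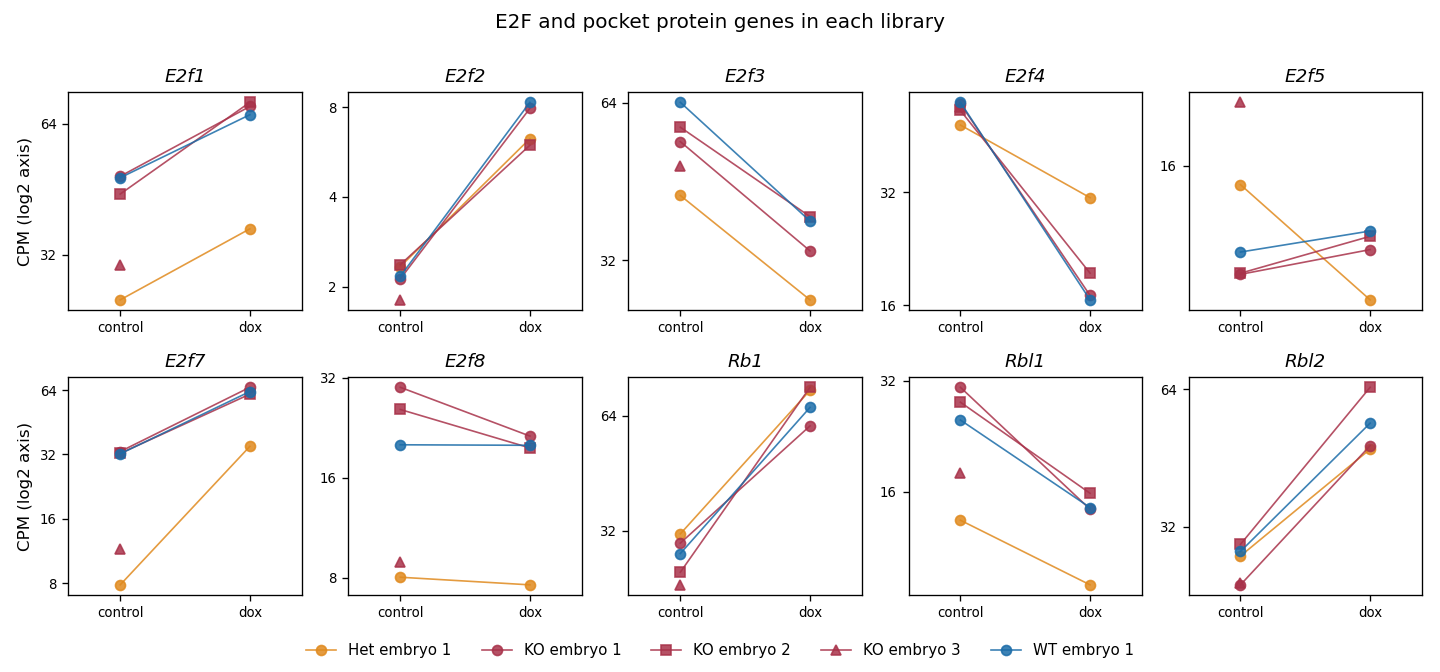
CPM (vertical axis, log2 scale) of the 10 genes in control and doxorubicin (dox) libraries (horizontal axis); each point is a library, colours give the genotype, marker shapes the embryo, and lines join the libraries of an embryo. E2f2, E2f7, Rb1 and Rbl2 are higher in all 4 doxorubicin libraries than in all 5 controls, E2f3 and E2f4 lower, and the Het libraries lie low for E2f1, E2f7, E2f8 and Rbl1.

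Some exons of these genes overlap genes on the opposite strand in GENCODE, and whether counting used the strand is not given in the sources used here. The shared exon bases were 488 with Rcbtb2 and 408 with Lpar6 for Rb1, 693 with Aktip and 892 with Gm45464 for Rbl2, 610 with Gm2788 for E2f8, 86 with 1700020G17Rik for E2f7 and 26 with 1810022K09Rik for E2f5. Reads from these stretches cannot be assigned with certainty, and they make up at most 11.8% of the exon bases of a gene with any single partner. The total can be larger for Rb1 (8.11% with Rcbtb2, 6.78% with Lpar6) and Rbl2 (9.17% with Aktip, 11.8% with Gm45464).

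The second comparison asked whether the 10 genes differ between KO and WT. In control cells (1 WT against 3 KO libraries), edgeR's quasi-likelihood test called 0 of the 10 and 0% of 14470 genes, with 10 genes, 0 of them among the 10 named here, at an unadjusted p under 0.05, and DESeq2 called 0. With 1 WT library the spread came from the KO controls alone, so the lack of calls does not show equal levels. The log2 fold changes of the 10 lay between -0.30 for E2f7 and 0.26 for E2f5, each smaller than its SE. KO embryo 3 took part in both ends: without it the values were 0.044 for E2f7 and -0.080 for E2f5. Left out in turn, KO embryo 1 gave 47 called genes and KO embryo 2 gave 41, none of them among the 10.

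With doxorubicin (1 WT against 2 KO libraries), 0 of the 10 and 0.197% of 15256 genes were called, which was 30 genes, and DESeq2 called 5 genes and 0 of the 10. At an unadjusted p under 0.05 there were 433 genes and 0 of the 10, and a fit over all 9 libraries called 0 genes. The log2 fold changes of the 10 lay between -0.26 (SE 0.29) for E2f2 and 0.14 (SE 0.24) for E2f4. A gene-wise difference between the genotypes in the response to doxorubicin was tested by the interaction over all 9 libraries, which called 0 of the 10 and 0% of 16656 genes in edgeR, with 58 genes at an unadjusted p under 0.05, and 0 in DESeq2. Interaction estimates had SEs from 0.35 for E2f4 to 0.94 for E2f8 on the log2 scale. With embryo as a replicate block the interaction called 8 genes, none of them among the 10.

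Rb1 lies on chromosome 14 (73183673 to 73325822, GRCm38), as does Sall2 (52311172 to 52328762), 20.9 megabases away. Its KO and WT control levels overlapped, at 27.9 CPM in WT and 23.1 to 29.7 CPM in KO. E2f1 and Rbl1 lie on chromosome 2, E2f4 and Rbl2 on chromosome 8, and E2f2, E2f3, E2f5, E2f7 and E2f8 on chromosomes 4, 13, 3, 10 and 7.

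E2F partners and subunits of the DREAM and MuvB complexes divided with doxorubicin: 4 of 9 rose, 4 fell and 1 (Tfdp2) was not called, with a median log2 fold change of 0.11, beside 21.9% higher and 20.2% lower of all genes tested. Lin9, a MuvB subunit, had 13.4 CPM in the WT control library and 48.4 with doxorubicin (log2 fold change 1.97, edgeR adjusted p = 0.00052), and Lin54, the subunit that binds DNA, 20.7 and 43.8 CPM (1.14, edgeR adjusted p = 0.00049). Lin52 and Mybl2 rose as well. Tfdp1, a DP partner, went from 124 to 86.4 CPM in WT (-0.53, edgeR adjusted p = 0.0081), and Rbbp4, Lin37 and E2f6 fell too. All of the 8 called genes kept their sign in 4 of 4 embryos, and Lin9, Lin54, Rbbp4 and E2f6 their call with any library left out. Tfdp1 lost its call in 8 such fits, all except that without the KO embryo 3 control (edgeR adjusted p from 0.0214 to 0.0382). Its call was also lost with RLE factors (edgeR adjusted p = 0.0111) and with every gene of at least 1 count (edgeR adjusted p = 0.0116). With the Het control, the Het doxorubicin or the KO embryo 2 doxorubicin library left out, 2 rose and 2 fell. Without the WT control or the WT or KO embryo 1 doxorubicin library 3 rose and 2 fell. In these left-out fits 26.9% to 34.6% of all genes were called. With library totals in place of TMM factors 3 rose and 2 fell, beside 37.2% of all genes called. With the block or without the 3 libraries standing apart 4 rose and 4 fell. Of all genes, 30.6% were called higher and 28.8% lower with the block, and 35.4% and 32.4% without the 3 libraries.

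Of the cyclins and kinases that act on pocket proteins, 0 of 9 rose and 4 fell (Ccnd2, Cdk2, Cdk4 and Cdk6), with a median of -0.24, beside 21.9% higher and 20.2% lower of all genes tested. Ccnd2, the D-type cyclin with the highest CPM of the list, went from 1293 to 680 CPM in WT (-0.87, edgeR adjusted p = 0.0041), and Cdk2 from 43.2 to 19.7 CPM (-0.97, edgeR adjusted p = 0.00047). Both were lower in 4 of 4 embryos. Leaving out the WT control, the KO embryo 2 control or the doxorubicin library of WT, KO embryo 1 or KO embryo 2 left 1 called gene (Cdk2), and leaving out the Het control, the KO embryo 1 control or the Het doxorubicin library left 2. Ccnd2 lost its call in all 8 of these fits (edgeR adjusted p from 0.0107 to 0.0327), in which 26.9% to 38.3% of all genes were called. Without the KO embryo 3 control 4 fell and 1 rose (Ccne2, edgeR adjusted p = 0.0014), beside 60.9% of all genes called. With embryo as a replicate block 5 fell, Ccnd3 (edgeR adjusted p = 0.0076) among them, and 1 rose (Ccne2, edgeR adjusted p = 0.0025). With library totals 2 fell, beside 37.2% of all genes called, and without the 3 libraries standing apart 6 fell and 1 rose. Of all genes, 30.6% were called higher and 28.8% lower with the block, and 35.4% and 32.4% without the 3 libraries.

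Among the CDK inhibitors 2 of 7 rose and 1 fell, with a median of 0.69, beside the same shares of all genes (21.9% higher, 20.2% lower). Cdkn2c, which inhibits CDK4 and CDK6, had 8.81, 2.62, 12.2, 9.13 and 3.02 CPM in the control libraries of WT, Het and KO embryos 1 to 3, and 40.2, 17.6, 44.5 and 46.9 with doxorubicin in WT, Het and KO embryos 1 and 2. Its log2 fold change was 2.53 (edgeR adjusted p = 0.00045), that of Cdkn1c 2.06 (edgeR adjusted p = 9.2e-05) and that of Cdkn2b -2.17 (edgeR adjusted p = 8.0e-05). Cdkn1a, the p53 target that encodes p21, had 561 CPM in the WT control library and 271 with doxorubicin, and was lower in 4 of 4 embryos; its log2 fold change of -0.64 (edgeR adjusted p = 0.0144) passed with the block (-0.70, edgeR adjusted p = 0.00088), without the KO embryo 3 control (edgeR adjusted p = 0.00060), without the 3 libraries (-0.68, edgeR adjusted p = 0.00056) and in DESeq2 (adjusted p = 0.00035). Cdkn2c and Cdkn1c were higher and Cdkn2b lower in 4 of 4 embryos. With the block, without the KO embryo 3 control or without the 3 libraries 4 inhibitors rose and 2 fell. Without the KO embryo 1 control 4 rose and 1 fell. Of all genes, 30.6% were called higher and 28.8% lower with the block, and 35.4% and 32.4% without the 3 libraries. The fit without the KO embryo 3 control called 60.9% of all genes and that without the KO embryo 1 control 38.3%. DESeq2 gave 4 higher and 2 lower inhibitors, beside 51.8% of all genes called. RLE factors gave 4 higher, with Cdkn2a and Cdkn2d added, beside 41.8% of all genes called.

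The E2F target genes of G1 and S phase gave 2 higher and 3 lower of 20, with a median of -0.29, beside 21.9% higher and 20.2% lower of all genes. Mcm7 went from 86.7 to 124 CPM in WT (log2 fold change 0.83, edgeR adjusted p = 0.0086). Mcm2, Tyms and Slbp were the called genes that fell, Mcm2 from 107 to 23.8 CPM in WT (-1.68, edgeR adjusted p = 0.0055). Mcm7 and Mcm2 kept their direction in 4 of 4 embryos. Without the KO embryo 3 control 4 rose and 10 fell, beside 60.9% of all genes called. Leaving out another library left 0 lower genes (WT control, WT doxorubicin, KO embryo 2 doxorubicin), 1 (Het control, KO embryo 1 control, Het doxorubicin) or 2 (KO embryo 2 control, KO embryo 1 doxorubicin), and 1 higher gene, or 3 without the KO embryo 1 control. Mcm7 and Mcm2 each lost their call in 7 of these fits (edgeR adjusted p from 0.0121 to 0.0389). In the fits without a library other than the KO embryo 3 control 26.9% to 38.3% of all genes were called. With the block 4 rose and 10 fell, and without the 3 libraries 4 rose and 11 fell. All genes gave 30.6% higher and 28.8% lower with the block, and 35.4% and 32.4% without the 3 libraries. DESeq2 gave 4 higher and 5 lower target genes, beside 51.8% of all genes called. RLE factors gave 4 higher, with Rrm2 and Cdc25a added, beside 41.8% of all genes called.

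Of the G2 and M phase targets of DREAM, 1 of 12 rose and 1 fell, with a median of -0.17, beside 21.9% higher and 20.2% lower of all genes. Aurka went from 53.5 to 186 CPM in WT (1.85, edgeR adjusted p = 0.0015) and Top2a, which encodes the enzyme doxorubicin poisons, from 241 to 31.4 CPM (-2.33, edgeR adjusted p = 0.0015). Aurka was higher and Top2a lower in 4 of 4 embryos. Top2a lost its call without the doxorubicin library of WT or of KO embryo 2 (edgeR adjusted p 0.0101 and 0.0110), which left 0 lower genes, and without the KO embryo 3 control 2 rose and 5 fell. Without the KO embryo 1 control 2 rose and 1 fell. Of all genes, 60.9% were called without the KO embryo 3 control and 38.3% without the KO embryo 1 control. With the block 2 rose and 6 fell, and without the 3 libraries 2 rose and 5 fell. All genes gave 30.6% higher and 28.8% lower with the block, and 35.4% and 32.4% without the 3 libraries. DESeq2 gave 2 higher and 2 lower G2 and M phase genes, beside 51.8% of all genes called. Of the 6 p53 target genes 0 were called in edgeR, 0 had an unadjusted p under 0.05 and 0 were called in DESeq2 or with the block, with a median of -0.20. Without the 3 libraries 0 were called, 1 had an unadjusted p under 0.05 and the median was 0.082. Mdm2 had 254, 513, 205, 219 and 511 CPM in the control libraries of WT, Het and KO embryos 1 to 3 and 225, 467, 203 and 284 CPM with doxorubicin in WT, Het and KO embryos 1 and 2. Its high libraries were the 3 that stood apart.

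The 8 interferon-stimulated genes had 0 called genes over all 9 libraries in edgeR, with 0 at an unadjusted p under 0.05 and 0 in DESeq2. With the block 2 rose (beside 30.6% of all genes), and 2 without the KO embryo 3 control, where 60.9% of all genes were called. The fit without the 3 libraries is no test of this list, since its own sum chose them. Of the 6 fibroblast markers 1 was called, Pdgfrb, which went from 591 to 59.3 CPM in WT (-2.80, edgeR adjusted p = 0.00023), lower in 4 of 4 embryos. Of the macrophage markers 1 of 6 rose and 1 fell, of the endothelial markers 1 of 4 tested rose, and of the epithelial markers 1 of 3 tested rose and 1 fell, beside 21.9% higher and 20.2% lower of all genes. With embryo as a replicate block 1 fibroblast marker rose and 1 fell, 2 macrophage markers rose and 1 fell, 3 endothelial markers rose, and 2 epithelial markers rose and 1 fell, beside 30.6% and 28.8% of all genes. Without the 3 libraries the endothelial and epithelial counts were as with the block, 1 fibroblast marker rose and 2 fell, and 1 macrophage marker rose and 2 fell, beside 35.4% and 32.4% of all genes. The macrophage marker Emr1 turned its sign, from a log2 fold change of -0.47 (edgeR adjusted p = 0.63) to 0.54 with the block (edgeR adjusted p = 0.0026) and 0.51 without the 3 libraries (edgeR adjusted p = 0.074). The fibroblast marker Col1a2 turned from 0.016 to -0.21 and -0.36 in these fits and was not called.

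**Figure D3:**
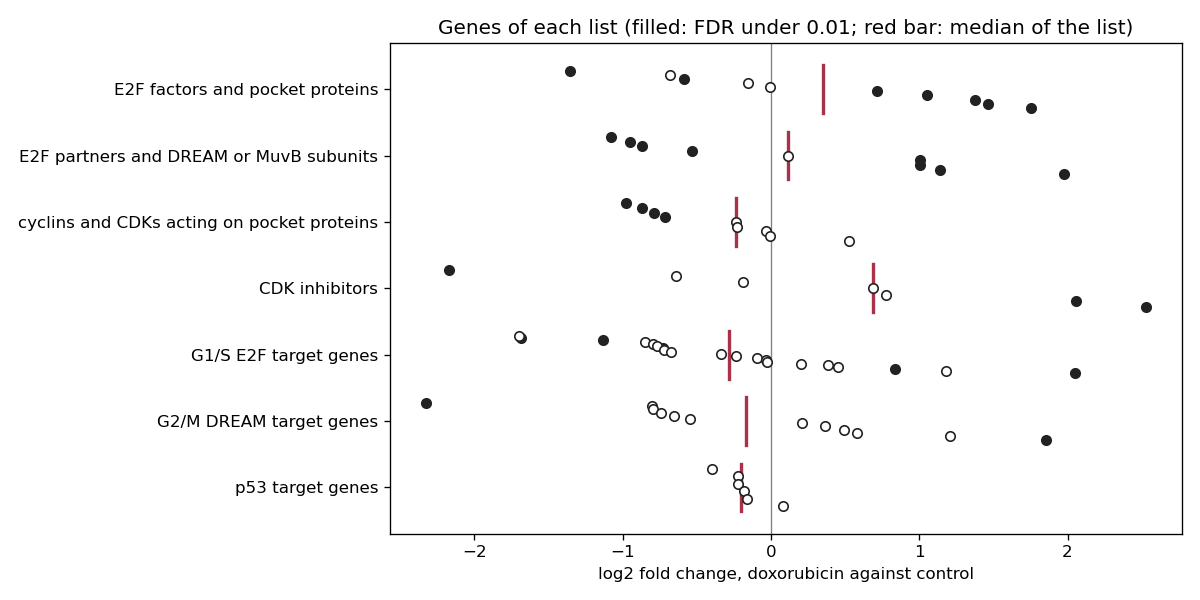
Log2 fold change of doxorubicin against control (horizontal axis) for the genes of each list (rows); each point is a gene, filled when its FDR was under 0.01, and the red bar is the median of the list. The list of E2F partners and DREAM or MuvB subunits, which includes E2f6, split into 4 genes above and 4 below 0 among the filled points.

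Across the 9 libraries, described without a test, E2f1 and E2f7 followed each other with a Pearson correlation of log2 CPM of 0.949, and so did Rb1 and Rbl2 at 0.952, while E2f4 ran against Rb1 at -0.897. The 9 points share the treatment and, for E2f1 and E2f7, the 3 libraries standing apart. Among 13850 other genes with a mean of at least 1 CPM, those most like each of the 10 were Pdk3 and Bcl2l13 for E2f1 (both 0.994), Txnl4b and Trp73 for E2f2 (both 0.991), Fert2 (0.992) and Faf1 (0.991) for E2f3 and Ubxn7 (0.997) and Mta2 (0.995) for E2f4. For E2f5 they were Tsta3 (0.967) and Glt8d1 (0.965), for E2f7 Nr4a1 (0.995) and Fhdc1 (0.994), and for E2f8 Ppp2r1b (0.996) and Ssr1 (0.991). For the pocket proteins they were Gm2694 (0.995) and Pls1 (0.994) with Rb1, Zfp280b (0.992) and Kif20b (0.988) with Rbl1, and Abhd4 (0.992) and Ddx59 (0.986) with Rbl2.

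RefSeq promoter windows (GRCm38.p6, 300 bases, from 250 before to 50 after the start) were matched for 7 of the 10 genes, in 9 windows; E2f4, E2f5 and Rb1 had no entry. They were searched on both strands for the E2F motif as TTTCCCGC, TTTCGCGC, TTTGCCGC or TTTGGCGC, and for the CHR motif TTTGAA. Of all 32851 windows 2.27% held an E2F match and 17.9% a CHR match; of the 9 windows 4 held an E2F match and 4 a CHR match. The E2F matches were in E2f2, E2f3, E2f7 and Rbl1. The E2f1 window (154569377 to 154569676, minus strand) held none, but it lies inside the gene. In GENCODE E2f1 starts at 154569892 on that strand, and the bases before that start were not searched. The 250 bases before the start are given for E2f3 and Rbl1, which were lower with doxorubicin in 4 of 4 embryos, and for E2f7, which was higher in 4 of 4, with the E2F match in capitals, which for E2f3 and E2f7 is on the opposite strand. They lie at chr13:29986064-29986313 on the minus strand for E2f3, chr2:157204535-157204784 on the minus strand for Rbl1 and chr10:110745189-110745438 on the plus strand for E2f7.
E2f3: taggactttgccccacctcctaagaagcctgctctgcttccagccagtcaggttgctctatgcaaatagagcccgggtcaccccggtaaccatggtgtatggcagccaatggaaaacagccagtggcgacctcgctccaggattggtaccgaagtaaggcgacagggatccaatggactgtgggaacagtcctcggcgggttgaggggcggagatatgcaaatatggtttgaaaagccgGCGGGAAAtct
Rbl1: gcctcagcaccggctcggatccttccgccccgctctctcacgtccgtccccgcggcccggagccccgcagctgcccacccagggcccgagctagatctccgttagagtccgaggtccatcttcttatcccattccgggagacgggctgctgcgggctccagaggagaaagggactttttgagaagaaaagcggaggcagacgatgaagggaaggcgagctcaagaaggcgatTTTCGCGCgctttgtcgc
E2f7: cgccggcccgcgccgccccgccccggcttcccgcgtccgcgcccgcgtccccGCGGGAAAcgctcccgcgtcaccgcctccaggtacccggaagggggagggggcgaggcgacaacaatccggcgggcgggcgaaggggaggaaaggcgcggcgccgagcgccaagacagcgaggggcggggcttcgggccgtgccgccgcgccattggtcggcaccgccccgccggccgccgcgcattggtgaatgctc
The matches began 11, 18 and 198 bases before the start of E2f3, Rbl1 and E2f7, so genes with higher and genes with lower values both held them. A match is a description of letters and not a bound site.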

How the data were processed

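RNA came from cultured MEFs, depleted of ribosomal RNA and made into stranded libraries. The authors merged 4 runs per sample, aligned reads to mm10 with HISAT2 (2.1.0 in the submitters' processing notes) and deposited raw counts per gene from HTSeq in union mode; the strand setting is not given in the sources used here. The 40 labelled runs map to 10 columns. The counts were tested with edgeR 4.0.16 and limma 3.58.1 in R 4.3.3: filterByExpr, TMM factors and a two-sided quasi-likelihood test, with genotype as a covariate for treatment, and FDR under 0.01 over all genes tested. DESeq2 1.42.0, RLE factors, a filter of at least 1 count, other thresholds, left-out libraries and a replicate block were alternatives. Log2 CPM used a prior count of 2. Fits were tested on simulated data. Genes could be named as members, genes of the lists, the 2 most correlated genes per member or Sall2; not all list genes are named, 3 of them for no reason in the data. Genes sharing exon bases with a member and Ddx3y are named besides. Members and lists were chosen with earlier results of these data known.

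Same-numbered libraries share an embryo by their labels, so the numbers pair the samples. Over 14883 genes, KO embryo 1 minus KO embryo 2 among controls had a Pearson r of 0.384 with the same subtraction among treated cells; genes are no independent replicates. The p-values of the KO comparisons rest on the spread among KO libraries alone. A floor of 3 counts corresponds to 0.123 to 0.169 CPM, and covers counting error only. The identical KO doxorubicin column was kept as embryo 2: Ddx3y, a Y-linked gene, had 0 counts there and in the KO embryo 2 control, and 1834 in the KO embryo 3 control.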

Additional observations from a re-analysis of the deposited data

Results flagged for a closer look

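In the Het doxorubicin library 3 genes lay far from the other 3 doxorubicin libraries: E2f1 at 36.7 CPM, E2f7 at 34.9 CPM and E2f8 at 7.61 CPM, each the lowest of the 4. The gap to the next library took most of the range. Of 20 groups examined 3 were so marked, and chance would mark about 1 in 20 if groups were independent, whereas these 3 share 1 library. This library was among the 3 with high interferon-stimulated and macrophage genes, whose part in these values was not tested.

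E2f5 moved the opposite way in the Het embryo and in both KO embryos. On the log2 CPM scale doxorubicin minus control was -0.54 in Het, against 0.099 in WT and 0.12 and 0.17 in KO embryos 1 and 2. Both Het libraries were among the 3 standing apart, and the Het control was among the 2 high controls for E2f5. The difference was not tested, with 1 Het embryo.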

How the results depend on the processing

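For doxorubicin against control, 6266 genes were called, and 8840 with embryo as a replicate block, which changed the call of 1 of the 10 E2F and pocket protein genes (Rbl1). FDR under 0.001 left 3393 (1898 higher, 1495 lower; 22.8% of all genes) with 4 of the 10, and KO libraries alone 1911 (1201 higher, 710 lower) with 2 of the 10. Without the 3 libraries standing apart, chosen after seeing the data, 9922 were called (5177 higher, 4745 lower). Leaving out each library in turn gave 4102 to 8971 called genes, 1842 to 4326 of them lower, and 4 to 8 of the 10. What moved these counts was not tested.

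In the treatment comparison these log2 fold changes of the 10 genes and the pathway lists turned their sign. With the block they were E2f5 0.012, Mdm2 0.065, Bax 0.016, Isg15 3.06, Ifit1 0.81, Ifit3 0.73, Oasl2 2.36, Bst2 1.26 and Rsad2 0.88. With DESeq2 they were E2f8 0.035, Ccnd1 0.0097, Ccne1 0.033 and Gins1 0.012, with RLE factors 0.035, 0.0097, 0.033 and 0.014 for the same 4 genes, and with library totals and no TMM factor, also chosen after seeing the data, 0.093, 0.042, 0.064 and 0.033. In KO libraries alone Tfdp2 was -0.027, Ccnd1 0.024, Ccne1 0.015 and Pcna 0.037. Without the 3 libraries E2f5 was 0.17, Plk1 -0.075, Cdc20 -0.13, Mdm2 0.11, Ccng1 0.049, Bax 0.14, Isg15 4.32, Ifit1 2.53, Ifit3 1.84, Oasl2 3.62, Bst2 1.47 and Rsad2 2.96, where the last 6 are interferon-stimulated genes whose sum chose the libraries left out, so that these 6 values are no test. The cause was not tested.

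With each library left out in turn, the ranges that crossed 0 were -0.25 to 0.012 for E2f5, -0.19 to 0.15 for E2f8, -0.29 to 0.013 for Bax, -1.43 to 1.25 for Bst2, -0.036 to 0.19 for Btg2, -0.15 to 0.038 for Ccnd1, -0.13 to 0.10 for Ccne1, -0.096 to 0.083 for Gins1, -3.45 to 0.86 for Ifit1, -3.12 to 0.73 for Ifit3, -1.46 to 3.06 for Isg15, -0.33 to 0.074 for Mdm2, -1.23 to 2.36 for Oasl2, -0.20 to 0.0073 for Pcna and -2.61 to 1.015 for Rsad2.

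For KO against WT in control, 0 genes were called and between 0 and 47 with a KO library left out (0 to 47 higher, 0 to 1 lower). With 1 RUVg factor E2f2 was 0.014. Left-out ranges crossed 0 for E2f2 (-0.10 to 0.074), E2f4 (-0.019 to 0.016), E2f5 (-0.080 to 0.41), E2f7 (-0.52 to 0.044), E2f8 (-0.19 to 0.49) and Rbl1 (-0.087 to 0.25). With doxorubicin the 30 called genes became 5 (2 higher, 3 lower) with DESeq2 and with RLE factors, 46 (22 lower) at FDR under 0.05, and 0 (0 higher, 0 lower) in a fit over all 9 libraries, with or without a KO library. Left-out ranges in that fit crossed 0 for E2f3 (-0.20 to 0.030), E2f7 (-0.039 to 0.053), E2f8 (-0.025 to 0.079), Rb1 (-0.17 to 0.18), Rbl1 (-0.028 to 0.13) and Rbl2 (-0.18 to 0.26). For the interaction, the replicate block gave 8 called genes (2 higher, 6 lower), with E2f5 at 0.048, E2f7 at -0.0067 and Rbl1 at -0.17. Left-out ranges crossed 0 for E2f5 (-0.42 to 0.047), E2f7 (-0.0070 to 0.57), E2f8 (-0.43 to 0.25), Rb1 (-0.091 to 0.28), Rbl1 (-0.17 to 0.18) and Rbl2 (-0.065 to 0.39). None of the 10 genes was called in a KO comparison or the interaction under any alternative run.

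A single WT and a single Het embryo limit every statement on genotype, and the depth of E2f2, at 40 to 167 counts per library, limits its precision.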
